A study of Mus musculus with 12 samples.

Results

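Peritoneal macrophages (PMφs) carry a set of genes that move cholesterol out of the cell or answer to the liver X receptors (LXRs), and 10 of them are described here across control, oxLDL, LPS and oxLDL+LPS cultures. They were taken by name from the 43278 gene symbols of the count table and are Abca1, Abcg1, Apoe, Apoc2, Pltp, Mylip, Lpcat3, Arl4c, Smpdl3a and Ch25h. The choice used no measured value, although earlier results of these data were known when it was made. All 10 passed the filter on low values in every comparison.

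The 12 libraries hold poly(A) RNA of PMφs from wild-type C57BL/6J mice, drawn into the peritoneal cavity with 4% thioglycolate, collected by lavage on day 4 and left to adhere for 18 h. Each of the 4 groups has 3 libraries. Control cells received neither agent, oxLDL cells were cultured with 100 µg/ml human medium oxidized LDL for 24 h, LPS cells received 10 ng/ml lipopolysaccharide, and oxLDL+LPS cells received both. The length of the LPS treatment was not stated for these libraries. According to the methods, each experiment combined the cells of littermates of both sexes before they were split into the 4 groups, and sex-linked transcripts, given below, did not match that in every library.

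Macrophages take up modified LDL through scavenger receptors, which sterol does not shut down, and they rid themselves of the surplus mainly by exporting it to apolipoproteins and HDL. LXRα (Nr1h3) and LXRβ (Nr1h2) bind oxysterols and, as heterodimers with a retinoid X receptor (RXR), switch on the transporters, apolipoproteins and lipid-modifying enzymes of this route. LPS acts through Toll-like receptor 4, and its signalling is known to interfere with part of the LXR programme.

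The deposited values behave as counts divided by 1 factor per library and are called normalized counts here. The library totals implied by that spacing were 16725623 to 26178875 reads, while the deposited totals were 17152972 to 17709731 without LPS and 22071853 to 26384551 with LPS. Scaling every library to the same total lowered the median log2 difference of all genes by 0.48 for LPS against control and by 0.39 for oxLDL+LPS against oxLDL, and differences with LPS are therefore relative to the deposited scaling. The inflammatory genes Tnf, Il1b, Il6 and Ifit1 were 9.77 to 12.76 higher with LPS on the log2 scale, and the macrophage markers summed to 226278 to 312903 in all libraries with 6 of 7 markers in the table. T cell markers were under 10 everywhere. Beside the LPS groups, the large peritoneal macrophage markers summed to 1182 to 2193 in LPS against 686 to 832 in control libraries and to 841 to 1272 in oxLDL+LPS against 641 to 892 in oxLDL libraries. The 6 genes of that list did not move alike. From control to LPS libraries, Timd4 went from 4 to 16 up to 152 to 230. Cxcl13 went from 163 to 232 up to 502 to 1179 and Icam2 from 58 to 83 up to 85 to 105. Gata6 (186 to 374 and 112 to 424), Tgfb2 (128 to 148 and 117 to 171) and Selp (22 to 71 and 58 to 104) overlapped. The neutrophil list (S100a8, with S100a9, Ly6g and Mpo under 10 in every library) summed to 74 to 249 with LPS and 31 to 49 without, and the eosinophil list (Siglecf, with Prg2 and Epx under 10) to 55 to 124 with LPS and 180 to 383 without. Mesothelial and fibroblast markers followed the replicate number, at 10513 to 17699 in number 1, 8285 to 10360 in number 2 and 2883 to 3575 in number 3. The male transcripts Ddx3y, Kdm5d, Uty and Eif2s3y were at 0 to 2 in replicate 2 of every group, where Xist was at 5933 to 7751. Xist was 1 and 2 in control and oxLDL replicate 1 but 6331 and 3812 in LPS and oxLDL+LPS replicate 1, so that number 1 was not the same mixture of cells with and without LPS. Both sexes showed in number 3 and in replicate 1 of the groups with LPS only. The part of these differences in the results below was not tested, and in bulk RNA fewer cells of a type and less RNA per cell cannot be told apart.

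RefSeq promoter entries (GRCm38.p6) were matched for 8 of the 10 genes. Abcg1 and Smpdl3a were not matched. The 250 bases before the start site are shown for 4 genes, which are Abca1 and Ch25h (the genes with the greatest rise with LPS), Arl4c (a fall with LPS) and Mylip (the largest difference with oxLDL alone).

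Abca1: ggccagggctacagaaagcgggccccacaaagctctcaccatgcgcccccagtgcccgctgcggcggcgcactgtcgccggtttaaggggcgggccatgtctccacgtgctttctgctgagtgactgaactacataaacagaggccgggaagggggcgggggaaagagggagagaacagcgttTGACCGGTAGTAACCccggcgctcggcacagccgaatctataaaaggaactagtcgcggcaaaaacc

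Ch25h: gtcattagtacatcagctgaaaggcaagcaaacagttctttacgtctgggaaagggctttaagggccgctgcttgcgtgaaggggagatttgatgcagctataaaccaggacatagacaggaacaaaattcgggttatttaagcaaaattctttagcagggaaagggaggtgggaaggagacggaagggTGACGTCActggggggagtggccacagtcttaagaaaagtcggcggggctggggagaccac

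Arl4c: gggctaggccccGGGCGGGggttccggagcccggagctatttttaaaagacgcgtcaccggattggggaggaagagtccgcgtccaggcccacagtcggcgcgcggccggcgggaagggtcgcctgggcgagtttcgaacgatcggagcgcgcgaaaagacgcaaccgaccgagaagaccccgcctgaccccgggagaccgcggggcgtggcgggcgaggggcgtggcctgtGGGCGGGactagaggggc

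Mylip: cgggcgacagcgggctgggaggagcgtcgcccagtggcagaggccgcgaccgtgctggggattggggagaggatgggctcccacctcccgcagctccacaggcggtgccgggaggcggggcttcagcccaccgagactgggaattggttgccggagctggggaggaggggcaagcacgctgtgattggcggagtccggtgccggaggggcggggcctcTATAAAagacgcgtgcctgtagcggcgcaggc

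The Abca1 stretch lies at chr4:53159896-53160145 on the minus strand, Ch25h at chr19:34475149-34475398 on the minus strand, Arl4c at chr1:88702192-88702441 on the minus strand and Mylip at chr13:45389492-45389741 on the plus strand. Capitals mark a match to an LXR element of the DR4 form in Abca1 (a direct repeat spaced by 4 bases, searched on both strands and found on the reverse strand 67 to 53 bases before the start), a cAMP response element in Ch25h (TGACGTCA, 61 to 54 bases before the start), 2 GC boxes in Arl4c (GGGCGGG) and a TATA box in Mylip (TATAAA, 32 to 27 bases before the start). The DR4 letters are in 58 of 32851 promoters of this length (0.177%), and Abca1 was the only 1 of the 8 genes to hold them. The other shares were 1.55% for the cAMP response element, 23.4% for the GC box and 12.4% for the TATA box. Only 1 kind of match is marked per gene. Left unmarked were an E-box (CACGTG, 6.02% of promoters), a TATA box and 2 GC boxes in Abca1, a TATA box in Ch25h and a GC box in Mylip. GC boxes were also in Lpcat3 and Pltp and TATA boxes in Apoe, which are not shown. Searches for an AP-1 site (TGANTCA, 6.75% of promoters), a kappaB site (0.356%) and an interferon-stimulated response element (2.98%) found no match in the 10 entries of these genes. A match is a description of letters, and its absence says only that they are not in this window.

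With LPS alone, 7 of the 10 genes passed limma's test against control at a Benjamini-Hochberg adjusted p under 0.1, where 61.7% of all 13023 genes tested did. Abca1, Ch25h and Lpcat3 rose (31.4% of all genes rose) and Abcg1, Arl4c, Smpdl3a and Pltp fell (30.3% of all genes fell). The share of the 10 is near that of all genes, and their median log2 difference was -0.09 beside -0.00097 over all genes. After scaling to equal totals, the calls over all genes moved from 4093 higher and 3946 lower to 2172 higher and 7225 lower, and those of the 10 from 3 higher and 4 lower to 2 higher (16.7% of all genes) and 6 lower (55.7%).

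In PMφs already loaded with oxLDL, LPS gave 6 calls among the 10 genes, where 54.5% of 12900 genes were called. Abca1 and Ch25h rose (28.2% of all genes) and Abcg1, Arl4c, Smpdl3a and Pltp fell (26.3%), with a median of -0.16 beside -0.018 over all genes. The LPS and control groups did not overlap for 6 of the 10 genes (63.2% of all genes), and the oxLDL+LPS and oxLDL groups also not for 6 (57.6%). With the replicate number as a block, the calls were 3 higher and 4 lower in the first comparison (68.7% of all genes, 34.6% higher and 34.1% lower) and 2 higher and 5 lower in the second (63.4%, 32.0% higher and 31.4% lower), where Mylip was added. Without number 1, the blocked fit called Abca1, Ch25h, Lpcat3, Abcg1, Arl4c and Smpdl3a in the first comparison, added Mylip (higher) and Apoc2 (lower) and lost Pltp, and it called all 7 in the second. That fit called 66.9% of all genes in the first comparison and 62.3% in the second. The p-values measure the spread between these libraries.

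**Figure D1:**
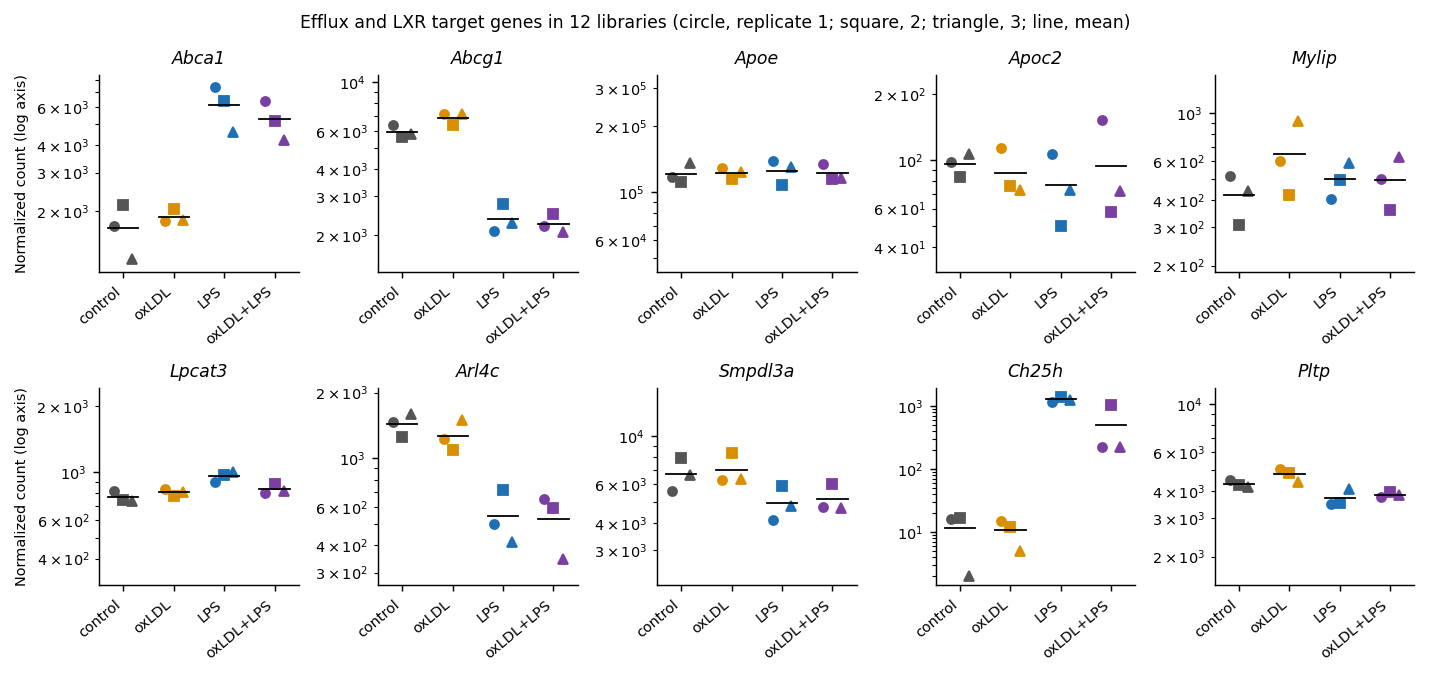
Normalized count (log axis, with a different range for each gene) of the 10 genes in each of the 12 libraries, by group, with symbols for the replicate number and a line at the mean of 3 libraries. Abca1 and Ch25h sit higher and Abcg1 and Arl4c lower in all 6 libraries with LPS than in all 6 without, and the Apoe values of the 4 groups overlap.

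Abca1, which hands cellular cholesterol and phospholipid to lipid-poor apolipoprotein A-I, lies at chr4:53030787-53159895 on the minus strand with 50 exon blocks. Its normalized counts were 1708, 2126 and 1201 in the control libraries and 7418, 6420 and 4586 in the LPS libraries. With oxLDL they were 1796, 2042 and 1813, and with oxLDL+LPS 6418, 5190 and 4231. Every library with LPS was above every library without, and the LPS mean was 3.66 times the control mean. The log2 difference was 1.88 (SE 0.24, adjusted p = 0.000389) without oxLDL and 1.47 (SE 0.15, adjusted p = 0.000215) with it, and at equal totals it was 1.40 and 1.08.

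Abcg1, which moves sterol to HDL particles, went the other way. The gene lies at chr17:31057675-31117988 on the plus strand. Its counts were 6382, 5618 and 5773 in control, 7123, 6374 and 7163 in oxLDL, 2094, 2762 and 2269 in LPS and 2207, 2500 and 2054 in oxLDL+LPS libraries. The 6 libraries with LPS were all below the 6 without. The log2 difference with LPS was -1.33 (SE 0.12, adjusted p = 6.56e-05) without oxLDL and -1.61 (SE 0.10, adjusted p = 1.79e-05) with it.

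Per kb of exon, Abca1 was at 0.147 to 0.267 times the level of Abcg1 in the control libraries and at 0.178 to 0.226 times in the oxLDL libraries. In LPS libraries the ratio was 1.42 to 2.49, and in oxLDL+LPS libraries 1.45 to 2.05. The order of the 2 transporters was thus opposite in the libraries with and without LPS, a ratio that the scaling of a library does not touch.

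**Figure D2:**
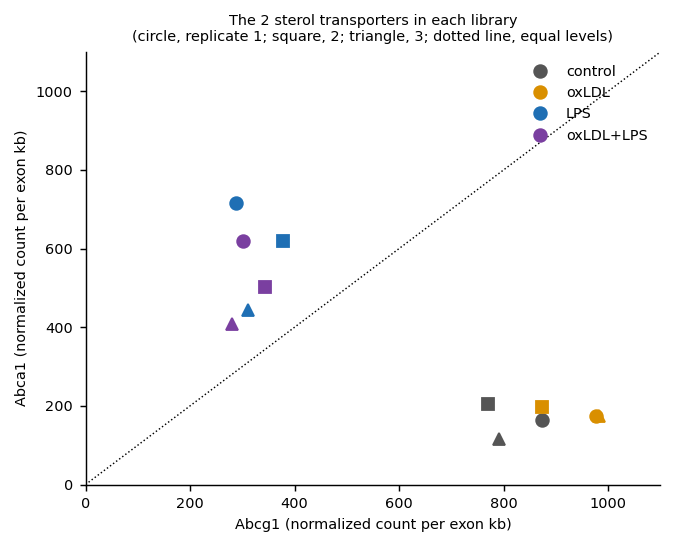
Abca1 against Abcg1 in normalized counts per kb of exon, with 1 point for each of the 12 libraries, coloured by group. The 6 libraries without LPS lie below the dotted line of equal levels (Abca1 at 116 to 205, Abcg1 at 770 to 982) and the 6 with LPS above it (Abca1 at 408 to 716, Abcg1 at 281 to 378).

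Apoe, the apolipoprotein that macrophages secrete and that lipoprotein receptors bind, had the most RNA of the 10 genes per kb in every group. The gene lies at chr7:19696109-19699188 on the minus strand. Its counts were 117161, 111499 and 135573 in control, 128658, 114352 and 123429 in oxLDL, 137856, 107802 and 130320 in LPS and 134345, 114052 and 116068 in oxLDL+LPS libraries. The 4 groups overlapped, and the adjusted p was 0.874 for LPS against control and 0.969 for oxLDL+LPS against oxLDL. At equal totals Apoe was called lower with LPS alone (log2 difference -0.44, adjusted p = 0.0662; over the alternatives the adjusted p ran from 0.0253 to 0.974). That setting shifted all genes by -0.48, and Apoe lay 0.04 above the shift. Quantile normalization also called Apoe lower in both LPS comparisons, and total scaling with the replicate block did so in oxLDL-loaded cells. There the adjusted p ran from 0.0187 to 0.997 over the alternatives.

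Apoc2, the cofactor of lipoprotein lipase, lies 18.2 kb from Apoe at chr7:19671579-19677941 on the same strand. It was far lower, at 98, 84 and 107 in control, 114, 76 and 73 in oxLDL, 107, 50 and 73 in LPS and 152, 58 and 72 in oxLDL+LPS libraries. Replicate 1 was the highest of its group in 3 of the 4 groups, all groups overlapped, and the test made no call. At equal totals Apoc2 was called lower with LPS alone (log2 difference -0.86, adjusted p = 0.0387, and 0.0129 to 0.709 over the alternatives). Gm44805, an annotated protein-coding gene on the same strand, reaches an exon of Apoc2 and has no entry of its own in these data. Any reads of it in that exon cannot be told apart from Apoc2, so the Apoc2 counts are less certain.

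Pltp, a secreted protein that transfers phospholipid between lipoproteins and remodels HDL, was at 4476, 4258 and 4157 in control and 3481, 3509 and 4086 in LPS libraries. In oxLDL libraries it was at 5046, 4838 and 4388 and in oxLDL+LPS libraries at 3761, 3951 and 3828. The LPS groups lay below their partners without overlap in both cases. The log2 difference was -0.22 (SE 0.10, adjusted p = 0.0853) without oxLDL and -0.30 (SE 0.08, adjusted p = 0.0194) with it. The size depended on the scaling, at -0.71 and -0.69 at equal totals and -0.80 and -0.78 under quantile normalization. The first call was lost without control replicate 1 (adjusted p = 0.229), control replicate 2 (0.167), control replicate 3 (0.147), LPS replicate 1 (0.167) or LPS replicate 2 (0.182). Pltp lies at chr2:164839518-164857711 on the minus strand. Ctsa, on the other strand with up to 37678 counts, reaches an exon of Pltp, and whether counting used the strand was not stated.

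Mylip encodes the ubiquitin ligase that sends lipoprotein receptors such as Vldlr and Lrp8 to the lysosome. It lies at chr13:45389742-45412022 on the plus strand. Its counts were 516, 306 and 437 in control, 405, 494 and 591 in LPS, 601, 420 and 919 in oxLDL and 497, 358 and 632 in oxLDL+LPS libraries. LPS alone gave no call (adjusted p = 0.349). Within oxLDL-loaded cells the log2 difference was -0.35 (SE 0.31, adjusted p = 0.398). With the replicate block, where the numbers differed by -0.27, -0.23 and -0.54, the adjusted p was 0.0229 (0.00129 to 0.883 over the alternatives). Number 1 was not the same mixture of cells with and without LPS, so its libraries are not a matched pair in that block.

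Of the receptors that Mylip acts on, Vldlr was at 10 to 71 and Lrp8 at 32 to 222 in all libraries, and limma called neither with LPS. With the block Lrp8 was called lower with LPS alone (log2 difference -0.67, adjusted p = 0.0166, and 0.00215 to 0.592 over the alternatives). The limit on number 1 holds for this block too.

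Lpcat3, which puts polyunsaturated fatty acids into membrane phospholipid, was at 820, 741 and 732 in control, 901, 970 and 1003 in LPS, 837, 774 and 810 in oxLDL and 798, 881 and 815 in oxLDL+LPS libraries. Only the LPS libraries stood above the control libraries without overlap. The log2 difference of LPS against control was 0.33 (SE 0.09, adjusted p = 0.0197), and it turned to -0.16 (adjusted p = 0.156) at equal totals, with adjusted p-values of 0.00393 to 0.333 over the alternatives. In oxLDL-loaded cells the adjusted p was 0.712, and at equal totals Lpcat3 was called lower there (log2 difference -0.35, adjusted p = 0.00821, and up to 0.999 over the alternatives). Lpcat3 lies at chr6:124663027-124704418 on the plus strand. Emg1, on the other strand and at 620 or less, reaches an exon of Lpcat3.

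Arl4c, a small GTPase of the ADP-ribosylation factor family, fell with LPS. It was at 1471, 1259 and 1605 in control and 501, 716 and 415 in LPS libraries, and at 1221, 1092 and 1500 in oxLDL and 655, 591 and 345 in oxLDL+LPS libraries. The groups did not overlap, and the log2 difference was -1.44 (SE 0.20, adjusted p = 0.000583) without oxLDL and -1.30 (SE 0.25, adjusted p = 0.00404) with it. The promoter shown above with its 2 GC boxes belongs to this gene, at chr1:88673125-88702221.

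Smpdl3a, a secreted phosphodiesterase related to acid sphingomyelinase, had the second highest level per kb in every group. It lies at chr10:57794335-57811830 on the plus strand. Its counts were 5602, 7939 and 6648 in control, 4129, 5896 and 4761 in LPS, 6318, 8364 and 6324 in oxLDL and 4741, 6053 and 4684 in oxLDL+LPS libraries. Replicate 2 was the highest in all 4 groups, and LPS and control libraries overlapped. The log2 difference was -0.45 (SE 0.17, adjusted p = 0.0558) without oxLDL, which was lost without control replicate 2 (0.179), control replicate 3 (0.117), LPS replicate 1 (0.147) or LPS replicate 3 (0.126). With oxLDL it was -0.44 (SE 0.15, adjusted p = 0.0483), lost without oxLDL replicate 2 (0.139), oxLDL+LPS replicate 1 (0.123) or oxLDL+LPS replicate 3 (0.139). Within the replicate numbers the difference was -0.44, -0.43 and -0.48 without oxLDL and -0.41, -0.47 and -0.43 with it. At equal totals the log2 difference was -0.93 and -0.83.

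Ch25h, whose enzyme hydroxylates cholesterol to an oxysterol that can itself bind LXR, lies at chr19:34473778-34475164 on the minus strand in 1 exon. It was nearly silent without LPS, at 16, 17 and 2 in control and 15, 12 and 5 in oxLDL libraries. With LPS alone it was at 1190, 1417 and 1253, and with oxLDL+LPS at 226, 1043 and 224. The LPS mean was 110 times the control mean, and the log2 difference was 7.05 (SE 0.63, adjusted p = 5.97e-05). In oxLDL-loaded cells the oxLDL+LPS mean was 46.7 times the oxLDL mean (21.1 times without oxLDL+LPS replicate 2), and the log2 difference was 5.13 (SE 0.65, adjusted p = 0.000615). The 1 added to each value lowers these log2 differences, most at low counts. Control replicate 3, at 2, raised the difference of LPS against control. That difference was 6.2 without this library, and up to 7.49 (without control replicate 2) when another library was left out. Gm26902, a transcript on the other strand that reaches the exon, was at 21 or less.

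**Figure D3:**
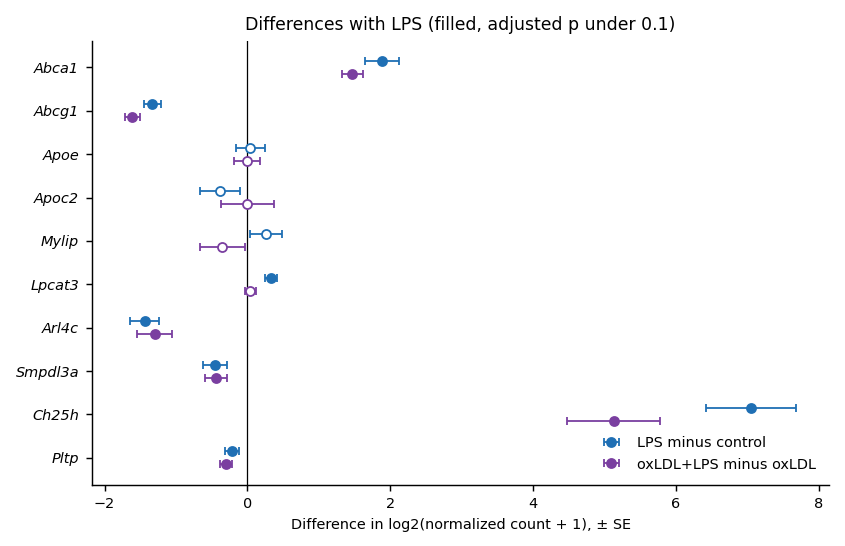
Difference in log2(normalized count + 1) with LPS for the 10 genes, LPS minus control and oxLDL+LPS minus oxLDL, with bars of 1 SE from limma on 3 against 3 libraries and filled points for an adjusted p under 0.1. Ch25h stands farthest to the right at 7.05 and 5.13, Abca1 follows at 1.88 and 1.47, and Abcg1 and Arl4c lie below -1 in both comparisons.

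With oxLDL alone, no gene of the 12751 tested passed limma's test against control (0.0%), 381 had an unadjusted p under 0.05, and among the 10 genes that was Abcg1 alone. The control and oxLDL libraries of all 10 genes overlapped, where 7.7% of all genes did not. The replicate numbers paired the libraries, since the same-numbered control and oxLDL libraries deviated together (correlations of 0.691 to 0.731 over 11186 genes). With that block 601 genes were called (4.71%), and 3 of the 10 were among them, 2 higher (1.80% of all genes) and 1 lower (2.92%).

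Mylip was higher in oxLDL than in control of the same number in 3 of 3 pairs, by 0.22, 0.46 and 1.07. The mean log2 difference was 0.58, with an SE of 0.30 and an adjusted p of 1.00 without the block, and an SE of 0.12 and an adjusted p of 0.0311 with it (0.000652 to 1.00 over the alternatives). Number 3 carried the largest step, from 437 to 919, and the blocked fit without it called Mylip, at 0.34. That fit, on numbers 1 and 2 only, also gave the adjusted p of 0.000652, and its variance is borrowed from other genes.

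Abcg1 differed by 0.16, 0.18 and 0.31 in the 3 pairs, a mean of 0.22 (blocked SE 0.05, adjusted p = 0.039, and 0.000115 to 1.00 over the alternatives). Arl4c differed by -0.27, -0.21 and -0.10, a mean of -0.19 (blocked SE 0.05, adjusted p = 0.076, and 0.000239 to 1.00). Abca1, by contrast, gave 0.07, -0.06 and 0.59 and no call (blocked adjusted p = 0.326, and 0.292 to 1.00). Without number 1, or without number 2, the blocked fit no longer called Abcg1 or Arl4c, where it called 1.73% and 1.12% of all genes. Mylip was also not called without number 2, while without number 3 the fit called 5 of the 10, adding Smpdl3a and Pltp, and 10.3% of all genes. The lowest adjusted p-values given here for Abcg1, Arl4c and Pltp come from that last fit, whose variance is borrowed from other genes. Pltp was higher in 3 of 3 pairs, by 0.17, 0.18 and 0.08, with a mean of 0.15 (blocked adjusted p = 0.128, and 0.000115 to 1.00). With Lpcat3, 4 of the 10 were higher in all 3 pairs, where 17.5% of all genes were, and Arl4c was the 1 lower in all 3, where 19.4% were.

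The list of 18 other LXR targets, most of them genes of fatty acid synthesis that SREBP factors also drive, also holds Nr1h3. Of these 18, 15 were tested and none was called without the block, although 7 had an unadjusted p under 0.05. With the block 10 of 15 were called, 2 higher and 8 lower, where 4.71% of all genes were called (1.80% higher and 2.92% lower). The lower ones included Fasn (-1.07, blocked adjusted p = 0.000131), the fatty acid synthase, the desaturase Scd2 (-1.17, 2.26e-06), Acaca (-0.44, 0.0018) and Acsl3 (-0.71, 0.0159). Of 15 genes of cholesterol movement and storage, the block called 3 (4.71% of all genes), among them Stard4, a sterol carrier, at -0.71 (0.011) and Lipa, the lysosomal acid lipase, at 0.30 (0.0551). None of the 6 LXR and partner genes described here was called in either fit. The adjusted p-values of these genes reached 0.999 or 1.00 over the alternatives.

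In LPS-treated cells, Ch25h had the largest oxLDL difference of the 10 genes. Its log2 difference of oxLDL+LPS against LPS was -1.77 (SE 0.56, adjusted p = 0.698), and the numbers gave -2.39, -0.44 and -2.48. With the block the SE was 0.32 and the adjusted p 0.0144. Replicate 2 of oxLDL+LPS, at 1043, was the library that set the spread. Without it, the fit with no block called Ch25h at -2.51 (adjusted p = 0.00684) among 91 genes in all. Without number 1, or without number 3, the blocked fit made no call among the 10 genes, where it called 0.579% and 0.0% of all genes. Over the alternatives the adjusted p ran from 4.7e-96, in the blocked fit on numbers 1 and 3 only, whose variance is borrowed from other genes, to 0.999.

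Among the 7 genes used to check the treatments, 6 also had their smallest oxLDL difference in number 2 of LPS-treated cells. Il1b gave -2.74, -0.94 and -2.80, the haem oxygenase Hmox1 1.78, 0.60 and 2.34 and the scavenger receptor Cd36 1.17, 0.56 and 1.22. The exception was the lipid droplet protein Plin2, at 0.64, 0.40 and 0.35. The part of this in the Ch25h result was not tested.

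Over all genes, the fit of oxLDL+LPS against LPS called none of 12786 (0.0%), with 890 at an unadjusted p under 0.05, and the blocked fit called 1682 (13.2%), 565 higher and 1117 lower, where Ch25h, lower, was the 1 of the 10 (4.42% of all genes were higher and 8.74% lower). At equal totals the block gave 1016 higher and 567 lower, and Ch25h was again called. The groups did not overlap for 2 of the 10 (12.6% of all genes), Ch25h and Lpcat3, both lower (6.39% of all genes).

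Lpcat3 was lower in oxLDL+LPS than in LPS by 0.17, 0.14 and 0.30 in the 3 numbers (log2 difference -0.20, SE 0.09, adjusted p = 0.715). Abca1 was lower in all 3 as well, by 0.21, 0.31 and 0.12, with a log2 difference of -0.21 (SE 0.22, adjusted p = 0.868). With Ch25h, that makes 3 of the 10 lower in all 3 numbers, where 24.4% of all genes were. For Abcg1, Apoe, Apoc2, Mylip, Arl4c, Smpdl3a and Pltp the numbers did not share a sign.

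**Figure D4:**
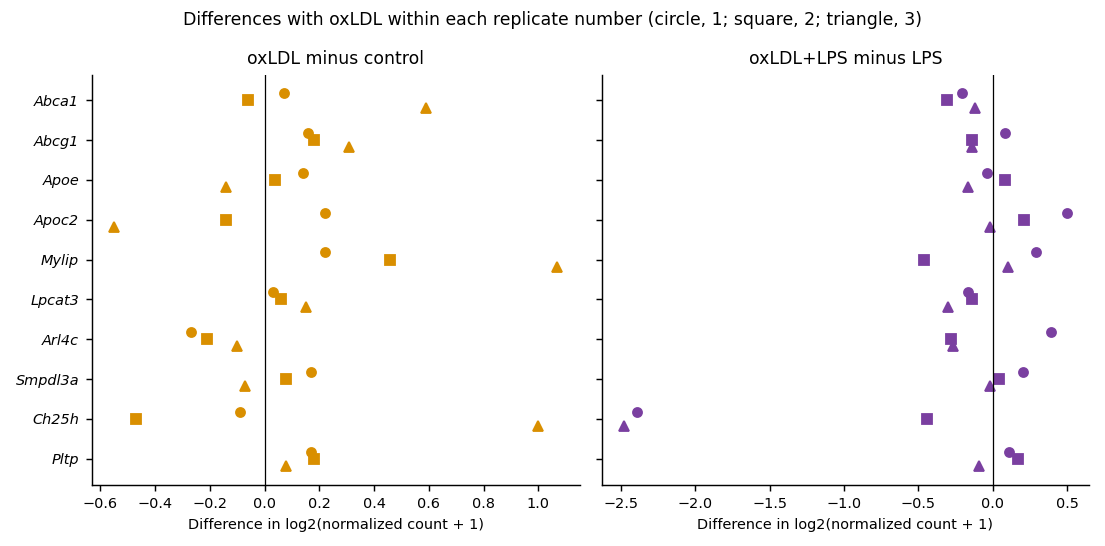
Difference in log2(normalized count + 1) with oxLDL within each replicate number, without LPS on the left and with LPS on the right, on axes of different range. Mylip lies to the right of 0 in all 3 numbers on the left (0.22 to 1.07), and on the right Ch25h lies at -2.39 and -2.48 in numbers 1 and 3 and at -0.44 in number 2.

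The difference between these oxLDL effects was tested as an interaction on all 12 libraries. No gene of 13482 passed (0.0%) in the fit without the block, with 418 at an unadjusted p under 0.05, or with it, with 967. For Lpcat3 the interaction was -0.28 (SE 0.11, unadjusted p = 0.027, adjusted p = 1.00), for Ch25h -1.92 (SE 1.03, unadjusted p = 0.0874), for Mylip -0.61 (SE 0.42), for Abca1 -0.41 (SE 0.32) and for Abcg1 -0.29 (SE 0.16). The interaction also tests whether LPS acted differently with and without oxLDL, and no such difference was detectable for these genes at 3 libraries per group.

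The receptors themselves moved with LPS. Nr1h3 (LXRα) rose from 914, 949 and 1066 to 1672, 1618 and 2297, by 0.92 (SE 0.15, adjusted p = 0.00127), and by 0.43 at equal totals (adjusted p = 0.0118). Nr1h2 (LXRβ) rose from 1849, 1889 and 1910 to 2379, 2679 and 2977, by 0.50 (SE 0.10, adjusted p = 0.00389), but by 0.02 at equal totals (adjusted p = 0.823, and 0.000685 to 0.829 over the alternatives). Their partner Rxra fell from 2786, 3122 and 3326 to 1063, 1565 and 1304, by -1.25 (SE 0.15, adjusted p = 0.000269), and Rxrb by -0.93 (SE 0.14, adjusted p = 0.000879; -1.41 at equal totals).

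The corepressor Ncor1 was at 2417 to 2769 in control and 2554 to 2660 in LPS libraries and was not called (adjusted p = 0.946). Pparg, a nuclear receptor that also partners RXR, fell from 1232, 1230 and 1284 to 81, 123 and 109, by -3.59 (SE 0.16, adjusted p = 1.63e-06). In oxLDL-loaded cells the same 5 of 6 genes were called in the same directions, with Nr1h3 at 0.83, Nr1h2 at 0.45, Rxra at -0.94, Rxrb at -0.75 and Pparg at -3.38. At equal totals Nr1h3 was at 0.44, Nr1h2 at 0.06 (adjusted p = 0.547) and Rxrb at -1.14. With oxLDL+LPS against LPS, the block called Rxra, at 1633, 1668 and 1824 against 1063, 1565 and 1304, a log2 difference of 0.40 (SE 0.10, blocked adjusted p = 0.0478, and 6.6e-07 to 0.999 over the alternatives).

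**Figure D5:**
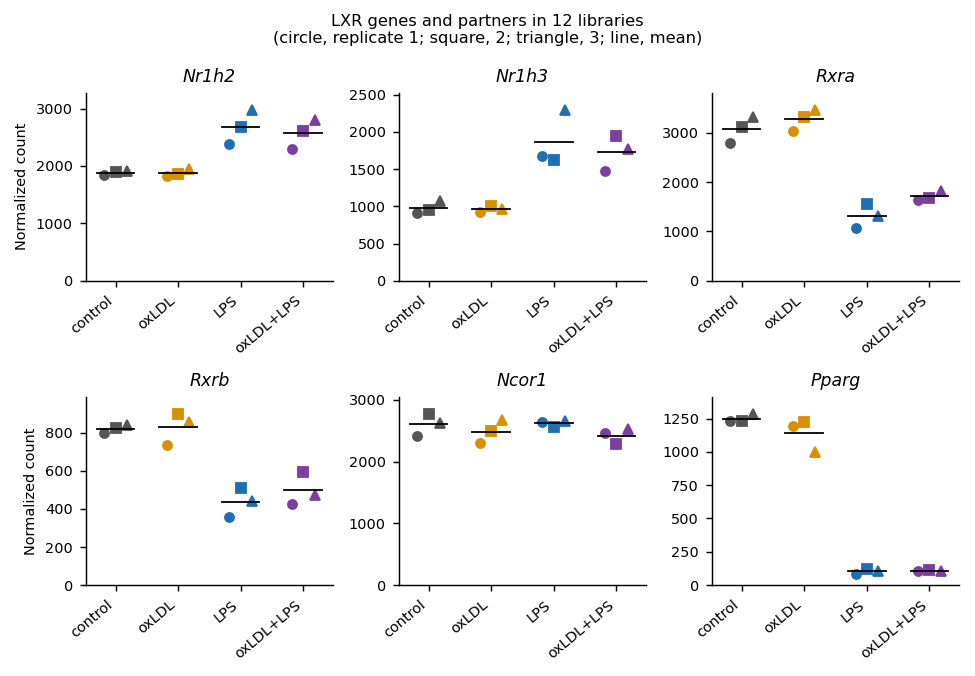
Normalized count (linear axis from 0, with a different range for each gene) of 6 LXR and partner genes in each of the 12 libraries, by group, with a line at the mean of 3 libraries. Nr1h3 sits higher and Rxra, Rxrb and Pparg lower in the libraries with LPS than in their partners without it, and Pparg lies at 81 to 123 with LPS and at 997 to 1284 without.

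Other LXR targets went both ways with LPS. Of 15 tested, 4 rose and 4 fell, no greater a share than the 61.7% called among all genes (31.4% higher and 30.3% lower), with a median log2 difference of 0.06 beside -0.00097 over all genes. The 4 that rose include Nr1h3, which is in both lists and is described above. Rnf145, a sterol-responsive ubiquitin ligase, rose by 1.72 (SE 0.11, adjusted p = 8.51e-06) and Mertk, the receptor for apoptotic cells, by 1.31 (SE 0.19, adjusted p = 0.000655; 0.83 at equal totals). The fatty acid desaturase Fads1 was lower by 1.57 (log2 difference -1.57, SE 0.12, adjusted p = 3.09e-05) and the elongase Elovl5 by 0.94 (-0.94, SE 0.11, adjusted p = 0.000291; -1.43 at equal totals). In oxLDL-loaded cells LPS again gave 4 higher (Nr1h3 among them) and 4 lower of 15, where 54.5% of all genes were called.

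Of the 15 genes of cholesterol movement and storage, LPS raised 8 and lowered 6, where 31.4% of all genes rose and 30.3% fell. The cholesteryl ester hydrolase Nceh1 was at -2.24 (SE 0.11, adjusted p = 2.39e-06) and the esterifying enzyme Soat1 at -1.93 (SE 0.11, adjusted p = 6.36e-06), so RNA of both arms of the cholesteryl ester cycle fell. Stard3, a sterol transfer protein of late endosomes, was at 1.86 (SE 0.12, adjusted p = 1.01e-05) and Cav1, the main protein of caveolae, at 3.53 (SE 0.29, adjusted p = 3.68e-05). The count was the same, 8 higher and 6 lower, in oxLDL-loaded cells, where 28.2% and 26.3% of all genes were.

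In LPS-treated cells, oxLDL gave no call in these lists without the block, and with it 10 of 14 other LXR targets were called, 1 higher and 9 lower, where 13.2% of all genes were called (4.42% higher and 8.74% lower). They included Fasn (-1.30, blocked adjusted p = 0.00614), Acaca (-0.53, 0.0116), Srebf1 (-0.31, 0.0399) and Rnf145 (-0.38, 0.0317). The block also called Stard4 at -0.72 (0.00927), Lipa at 0.67 (0.02) and Lrp8 at 1.18 (0.0747), each of which reached an adjusted p of 0.999 under another alternative.

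Ranked by normalized count per kb of exon in the control libraries, Apoe (52150 to 63410) was followed by Smpdl3a (2713 to 3845), Pltp (1623 to 1747) and Abcg1 (770 to 874), none of which overlapped its neighbour. Arl4c (229 to 292) and Lpcat3 (224 to 251) overlapped, as did Abca1 (116 to 205), Mylip (94.7 to 160) and Apoc2 (103 to 132), and Ch25h was lowest (1.44 to 12.3). In the LPS libraries Ch25h (858 to 1022) came next after Pltp, and Abca1 (443 to 716) stood above Abcg1 (287 to 378) and Lpcat3 (276 to 307), which overlapped. Mylip (125 to 183), Arl4c (75.6 to 130) and Apoc2 (61.5 to 132) came last and each overlapped the next.

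The genes whose log2 values ran most like Abca1 over the 12 libraries, among 9447 genes with a mean of at least 100, were Il4ra (Pearson r 0.986), Fam204a (0.981) and Cebpd (0.978). For Abcg1 they were Vkorc1l1 (0.990), Osbpl11 (0.990) and Pnpla2 (0.987). Among the 10 genes r was -0.92 between Abca1 and Abcg1, 0.95 between Abca1 and Ch25h, 0.93 between Abcg1 and Arl4c and 0.74 between Apoe and Apoc2. These are descriptions over libraries that share their treatment groups and pools.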

How the data were processed

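PMφ RNA was sequenced as directional poly(A) libraries. The authors trimmed reads with Trimmomatic (version 0.32), aligned them to GRCm38 (mm10) with STAR (version 2.5.1b) and used featureCounts to count reads over the exons of GENCODE genes. The deposited signal comes in whole numbers whose spacing is that of counts scaled by 1 factor per library, so tests for raw counts (DESeq2, edgeR) were not run. Of 43278 symbols, 18273 were at 0 everywhere, and 25 had become dates (at most 0.165% of a library). Positions, exon lengths and overlaps come from the GENCODE annotation M21, which is not the release that the authors counted with. Levels per kb divide the deposited values by these exon lengths.

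Groups were compared with limma (version 3.58.1, R 4.3.3; lmFit, and eBayes with a trend) on log2(value + 1), over genes with at least 10 in 3 of the libraries compared. A fold change on this scale understates that of low genes. Only the 6 libraries of a comparison entered a fit, and all 12 the interaction. A call needed an adjusted p under 0.1 (Benjamini-Hochberg, over all genes tested). The fits were tested on simulated data. Same-numbered libraries deviated together, with correlations of 0.305 to 0.733 and each library closest to its own number, so a fit blocked on the number stands beside a result where it changes a call. Between libraries with and without LPS, number 1 was not the same mixture of cells, which limits the block there. Alternatives were this block, a pseudocount of 5, other filters and scalings, all 12 libraries and leaving out each replicate. Total scaling was added after seeing the data.

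Members and gene lists were chosen with earlier results of these data known. The text names all 10 members, the LXR and Mylip receptor genes, the treatment checks, up to 4 genes of each other list with the smallest p per comparison, and the 3 genes most like Abca1 and Abcg1. Some genes that fall under this rule are not reported here.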

Additional observations from a re-analysis of the deposited data

Results flagged for a closer look

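Lpcat3 was higher in oxLDL than in control of the same replicate number in 3 of 3 pairs (by 0.03, 0.06 and 0.15 on the log2 scale) and lower in oxLDL+LPS than in LPS in 3 of 3 (by 0.17, 0.14 and 0.30). Every pair moved one way without LPS and the opposite way with it, and Lpcat3 was flagged for this pattern. The share of all genes with the pattern was not counted. The interaction, which uses the same values that gave the flag, was -0.28 (limma, unadjusted p = 0.027, adjusted p = 1.00 without and 0.669 with the replicate block), and it was not called. Emg1, on the other strand with up to 620 counts, reaches an exon of Lpcat3.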

How the results depend on the processing

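The number of the 10 genes called stayed within 1.5 times under every alternative for both LPS comparisons, between 5 and 9 of 10 with the blocked fits included. Over the same alternatives, the share of all genes called ran from 35.5% to 78.0% for LPS against control. For oxLDL+LPS against oxLDL it ran from 31.6% to 75.4%, and the 9 of 10 came from the fit with 75.4%. For oxLDL against control, 0 of the 10 were called, 3 with the replicate block and 4 with the block and total scaling, and leaving out a replicate number from the blocked fit gave 0 to 5. For oxLDL+LPS against LPS, 0 were called, 1 with the block and 1 with the block and total scaling, and leaving out a replicate gave 0 to 2, where without oxLDL+LPS replicate 2 the unblocked fit called 1. The replicate block changed no other call among the 10 genes except Mylip in oxLDL+LPS against oxLDL. Over all genes, oxLDL against control had 0 calls, 601 with the block, 708 with the block and total scaling and 139 to 1285 when a number was left out of the blocked fit. For oxLDL+LPS against LPS these were 0, 1682, 1583 and 0 to 2945, with 29 in the fit on all 12 libraries and 91 without oxLDL+LPS replicate 2. The interaction had 0 calls, 9 in the blocked fit without number 2 and 6 without oxLDL+LPS replicate 2. Lpcat3 in LPS against control turned from 0.33 to -0.16 under total scaling and to -0.16 under total scaling with the replicate block, which shifted the median of all genes by -0.48, and was 0.11 (adjusted p = 0.333) under quantile normalization. Pltp lost its call in LPS against control with no filter on low values (adjusted p = 0.14), where more genes were tested. Where a value of 10 was required in every library, Ch25h could not be tested in comparisons that hold control or oxLDL libraries. The causes of the other changes were not tested. Depth limits Ch25h without LPS, where a library held 2 to 17 counts.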
